A study of Homo sapiens with 12 samples.

Results

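Transcripts of 9 Eph receptor and ephrin genes were followed across T24 cells of both genotypes, with and without an auxin-type inducer. The genes were taken by symbol from the 60603 genes of the count table: the 5 receptors EPHA2, EPHA4, EPHB2, EPHB3 and EPHB4 and the 4 ephrins EFNA1, EFNA5, EFNB1 and EFNB2. All 9 passed the filter on low counts, which left 17775 genes for testing. The set was chosen by the measured change of EPHA4 and EPHA2 between untreated and treated NS1 cells, where EPHA4 was higher and EPHA2 was not. The values of the 9 genes in that comparison are therefore given as a description, without a test.

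T24 cells are an established line from a carcinoma of the human bladder. These libraries belong to a study of AlissAID, a method in which an auxin-dependent ubiquitin ligase is recruited by a binding protein to an endogenous protein that carries no tag, so that the protein is degraded when an inducer is added. There were 4 groups of 3 replicates: genotype WT without treatment, genotype WT with 5-Ad-IAA, genotype NS1 without treatment, and genotype NS1 with 5-Ad-IAA. All 4 groups are T24 cells in the same medium. 5-Ad-IAA is an auxin derivative used as the inducer. The labels do not spell out NS1, do not say which parts of the system the WT cells carry, and do not say whether the NS1 line is 1 clone, so the construct and the history of the line cannot be told apart in any comparison of NS1 with WT. They also do not say that replicates came from separate cultures, so p-values measure the spread between these libraries, which may be technical.

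Eph receptors are the largest family of receptor tyrosine kinases, and their ligands, the ephrins, are themselves bound to the membrane of neighbouring cells. A-type ephrins are held by a lipid anchor and bind mainly EphA receptors, whereas B-type ephrins span the membrane and bind mainly EphB receptors, and EPHA4 is known for binding ligands of both types. Contact sends signals into the receptor-bearing cell and back into the ephrin-bearing cell, and in epithelia and carcinomas the family is known for cell sorting, adhesion, repulsion and migration. EPHA2 is common in carcinoma cells, where EFNA1 is its usual ligand. EPHB4 and EFNB2 are the receptor and ligand best known from the separation of arteries and veins.

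Library totals ran from 10593934 to 20266996 counts. On the first 2 principal components of log2 CPM, with 49.3% and 14.5% of the variance, replicate 1 stood apart from replicates 2 and 3 in all 4 groups. All 4 keratin markers of epithelium were detected, at a summed level of 4020 to 11000 CPM, the count scaled to the size of its library, while 3 of 7 urothelial markers (UPK1B, UPK3A and KRT20) held at most 3 counts in each library. These are bulk libraries, in which fewer cells with a transcript and less of it per cell cannot be told apart.

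The receptor repertoire of these cells was dominated by EPHA2. Levels of different genes were compared per length of their exons, as RPKM, which is CPM per kilobase. In WT cells EPHA2 stood at 73.2 ± 13.6 RPKM (SD, n = 3) untreated and 73.3 treated, and in NS1 cells at 85.2 untreated and 65.7 ± 13.8 treated. It was first in every group, and its lowest library lay above the highest library of every other member. Of the summed RPKM of the 14 Eph receptor genes, EPHA2 made up 80.2% ± 3.11 (SD, n = 3) in untreated WT cells and 75.3% ± 7.33 in treated NS1 cells. The depth behind this gene was 3084 to 5408 counts per library, against 29 to 485 for EPHA4, 7 to 50 for EFNA1 and 7 to 58 for EPHB3. Counting error alone is thus much wider for these last 3 genes.

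Below EPHA2, the order of the members differed between groups. In untreated WT cells EPHB4 followed at 9.09 ± 0.343 RPKM (SD, n = 3), then EFNB2 at 6.85 ± 0.779, and neither overlapped its neighbours in the order. EPHB2 (3.11 RPKM), EFNB1 (2.69) and EFNA5 (2.60) overlapped one after the other, and so did EFNA1 (0.819) and EPHA4 (0.595). EPHB3 was last at 0.220 RPKM. In treated NS1 cells EFNB2 came second at 8.77 ± 0.610 RPKM, ahead of EPHB4 at 5.72 ± 0.749. From EPHB4 down through EPHB2, EFNB1, EFNA5 and EPHA4 to EFNA1 (1.33 RPKM), each gene there overlapped the next. EPHB3 was last, at 0.505 RPKM. Untreated NS1 cells had EFNB2 (10.5 RPKM) ahead of EPHB4 (5.12) as well, but there EFNA1 was last at 0.309 RPKM, below EPHB3 (0.641) and EPHA4 (0.484), with each of these 3 overlapping its neighbour.

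**Figure D1:**
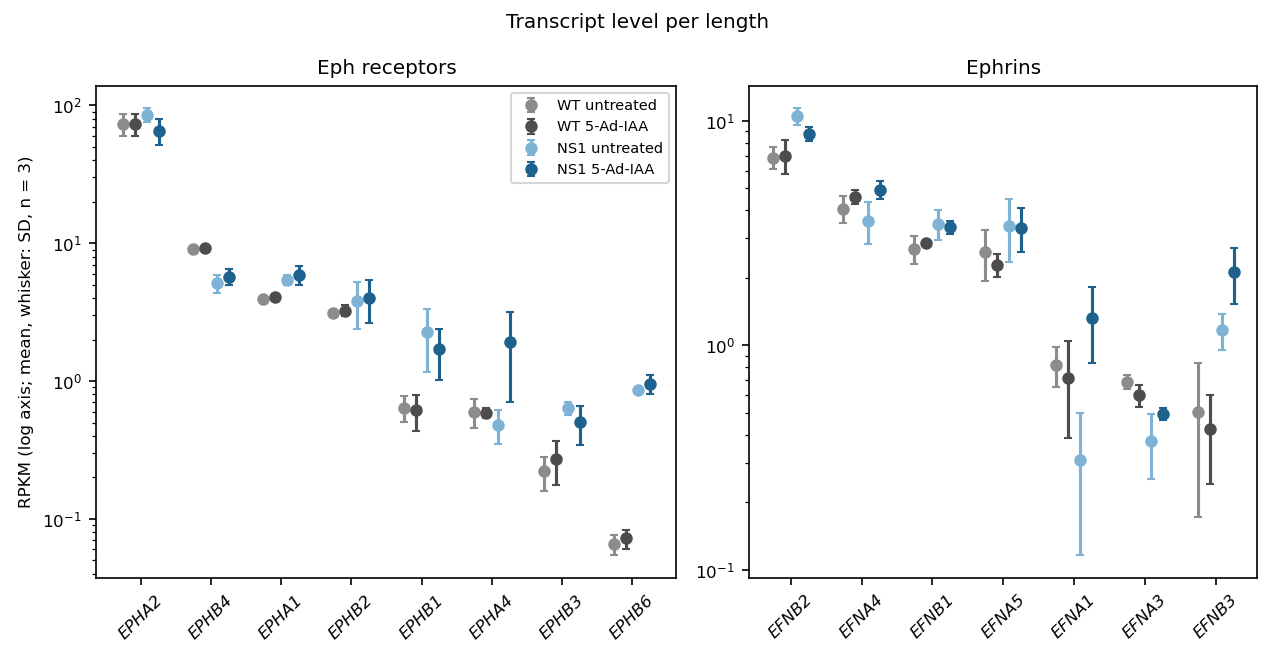
Level per exon length (RPKM, log axis) of the 15 genes of the family that passed the filter, as the mean of each group with a whisker of 1 SD (n = 3), receptors on the left and ephrins on the right. EPHA2 lies far above the other receptors in all 4 groups, and the group mean of EFNA1 is highest in treated NS1 cells, at 1.33 RPKM, as is that of EPHA4, at 1.93 RPKM.

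EPHA4, a receptor for ephrins of both types, was low in 3 groups and higher in treated NS1 cells. Its normalised level in replicates 1, 2 and 3 was 5.25, 4.95 and 3.29 CPM in untreated WT cells and 4.37, 4.15 and 4.86 CPM in treated WT cells. In NS1 cells it was 4.75, 3.42 and 2.79 CPM without the inducer and 25.2, 9.86 and 8.72 CPM with it. Every treated NS1 library lay above all 9 other libraries, and replicate 1 lay far above the other 2 treated ones. The fitted difference was 2.00 on the log2 scale (SE 0.36), a 3.99-fold higher level, and it was 1.32 without treated NS1 replicate 1. Between libraries of the same number the ratio was 5.30-fold, 2.89-fold and 3.13-fold. As a share of the summed RPKM of the Eph receptors, EPHA4 went from 0.471% ± 0.157 to 2.38% ± 1.82 (SD, n = 3).

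EPHA2, the main EphA receptor of these cells, was not higher with the inducer in NS1 cells. Its level was 310, 393 and 359 CPM in untreated NS1 replicates 1, 2 and 3 and 207, 309 and 304 CPM in the treated ones. The treated libraries were all below the untreated ones, with 309 and 310 CPM as the nearest values of the 2 groups. The difference was -0.38 on the log2 scale (SE 0.19), and it ranged from -0.47 to -0.21 when single libraries were left out. In each numbered pair the treated library was lower, by log2 ratios of -0.58, -0.35 and -0.24. Per length, EPHA2 exceeded EPHA4 by 119, 209 and 234 times in untreated NS1 replicates 1, 2 and 3. In the treated replicates the excess was 14.9, 56.9 and 63.2 times, so EPHA2 remained the more abundant receptor.

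**Figure D2:**
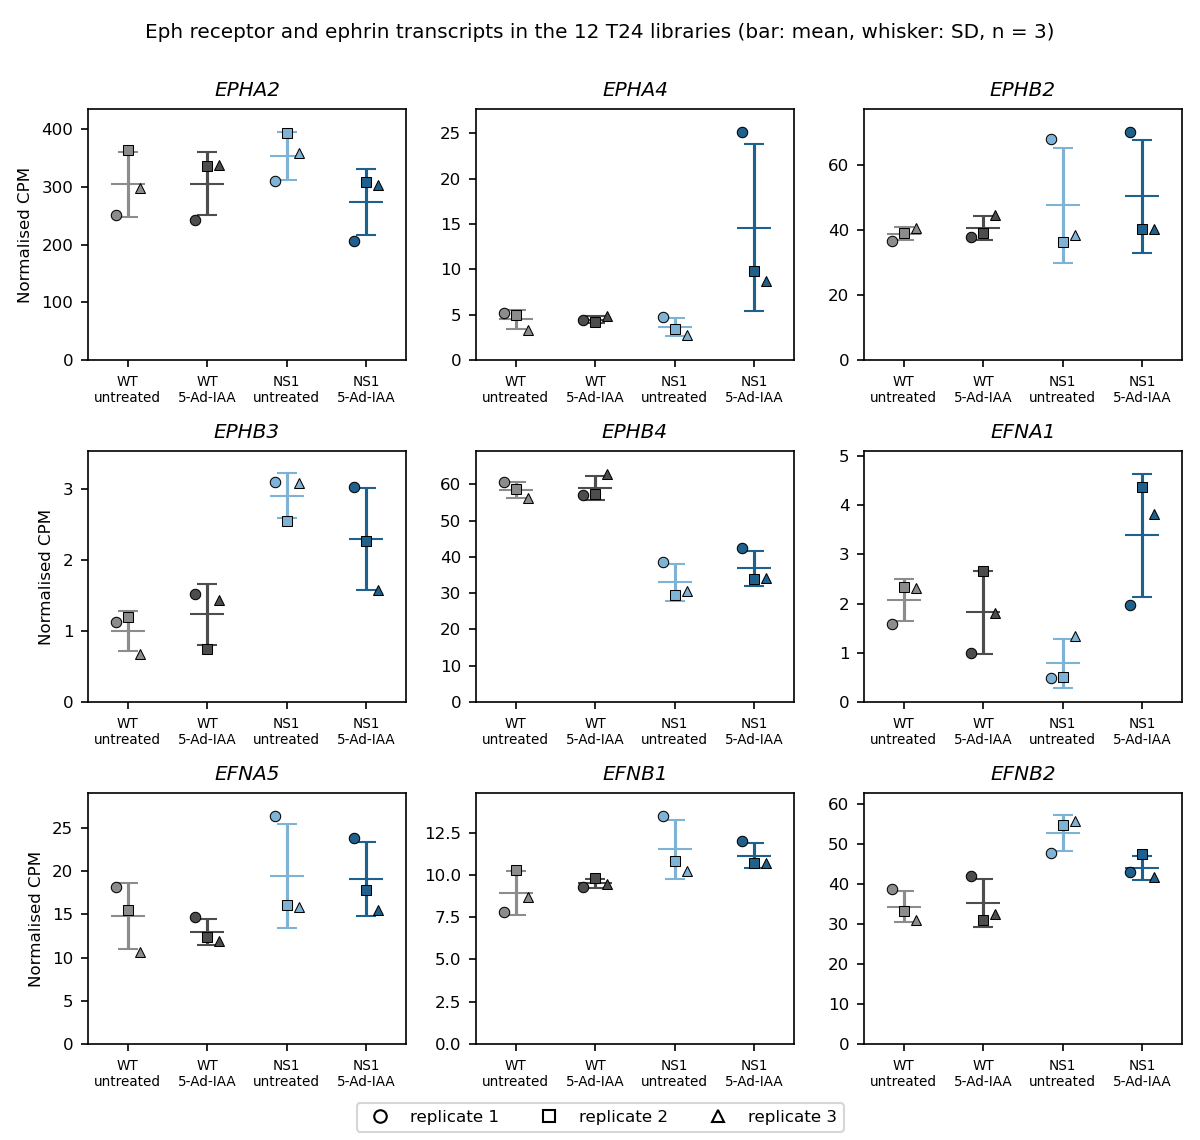
Normalised level (CPM, linear axes that start at 0 and differ between panels) of the 9 genes in the 12 libraries, with a line at each group mean and a bar of 1 SD. EPHA4 in the 3 treated NS1 libraries stands at 8.72 to 25.2 CPM, above the 2.79 to 5.25 CPM of the other 9, while EPHA2 in treated NS1 cells stands below its level in untreated NS1 cells.

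The sequence just upstream of these genes is shown because EPHA4 and EPHA2 went different ways in the same libraries, as did EPHB4 and EFNB2 between the lines. Each run is the 250 bases before the outermost RefSeq start of the gene on GRCh38.p14, read 5′ to 3′ on the strand of the gene, with capitals for the letters of a searched motif. All 4 genes lie on the minus strand. The EPHA4 run is at chr2:221574203-221574452, and all of it lies within exons of AC079834.2, a gene on the opposite strand. The EPHA2 run is at chr1:16156070-16156319, the EPHB4 run at chr7:100827524-100827773 and the EFNB2 run at chr13:106535663-106535912.
EPHA4: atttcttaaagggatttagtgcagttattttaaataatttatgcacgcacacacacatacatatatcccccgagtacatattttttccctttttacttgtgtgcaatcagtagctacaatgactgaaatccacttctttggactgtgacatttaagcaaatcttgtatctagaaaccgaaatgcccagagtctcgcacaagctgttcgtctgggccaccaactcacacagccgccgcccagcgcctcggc
EPHA2: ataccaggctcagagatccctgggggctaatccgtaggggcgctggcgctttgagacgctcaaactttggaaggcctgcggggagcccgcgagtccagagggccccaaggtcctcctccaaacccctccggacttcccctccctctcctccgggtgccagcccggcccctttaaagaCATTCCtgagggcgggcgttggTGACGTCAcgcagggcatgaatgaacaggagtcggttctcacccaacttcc
EPHB4: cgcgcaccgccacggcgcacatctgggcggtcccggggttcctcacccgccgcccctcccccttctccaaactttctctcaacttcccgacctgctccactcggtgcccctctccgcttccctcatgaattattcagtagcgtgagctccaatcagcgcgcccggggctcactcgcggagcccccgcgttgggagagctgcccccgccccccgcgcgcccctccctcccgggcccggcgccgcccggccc
EFNB2: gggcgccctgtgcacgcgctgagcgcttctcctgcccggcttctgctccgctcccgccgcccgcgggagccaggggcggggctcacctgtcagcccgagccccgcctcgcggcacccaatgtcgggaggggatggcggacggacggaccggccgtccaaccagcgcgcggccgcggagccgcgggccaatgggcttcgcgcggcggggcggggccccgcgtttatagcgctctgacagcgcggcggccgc
The EPHA4 run had 43.2% G and C, against 63.2% for EPHA2, 72.8% for EPHB4 and 78.4% for EFNB2. RefSeq gives EPHA4 a further start, and the bases upstream of that one, at chr2:221572305-221572554, had 78%. A cyclic AMP response element, TGACGTCA, began 51 bases before the EPHA2 start, and the TEAD motif GGAATG was present on the other strand, read here as CATTCC, 73 bases before it. In 35116 RefSeq windows of 250 bases before and 50 after a start, searched on both strands, 1.85% held TGACGTCA and 14.0% held GGAATG. The other motifs searched were the ETS motif CCGGAA (17.2% of windows), the AP-1 motif TGANTCA (7.71%), the E-box CACGTG (7.26%), the E2F motif TTTCCCGC (1.63%) and the forkhead motif TGTTTAC (3.42%). None of these letters were in the windows of the 9 members. A match is a stretch of letters and not a measured binding site.

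EFNA1, the A-type ephrin best known as the ligand of EPHA2, was higher with the inducer in NS1 cells. Its level in replicates 1, 2 and 3 was 0.494, 0.509 and 1.35 CPM without the inducer and 1.98, 4.36 and 3.82 CPM with it. The groups did not overlap, and untreated NS1 replicates 1 and 2 lay below the WT range of 0.997 to 2.67 CPM. The difference was 2.15 on the log2 scale (SE 0.47), or 4.45-fold, with a range of 1.89 to 2.71 when single libraries were left out. EFNA5, the other A-type ephrin, showed no such shift: 26.4, 16.1 and 15.8 CPM without and 23.8, 17.8 and 15.5 CPM with the inducer, a log2 difference of -0.03 (SE 0.23). Per length, EPHA2 exceeded EFNA1 by 384, 472 and 163 times in untreated NS1 replicates 1, 2 and 3 and by 64.1, 43.2 and 48.5 times in the treated ones.

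Within the set, the EphB receptors and B-type ephrins had smaller differences with the inducer in NS1 cells than EPHA4 and EFNA1. The same held for EPHA2 (-0.38) and EFNA5 (-0.03), so size did not separate the A-type from the B-type genes. EFNB3, a B-type ephrin outside the set, differed by 0.86 without overlap but was not called (edgeR adjusted p = 0.184). EFNB2, a transmembrane ephrin, was at 47.7, 54.8 and 55.7 CPM without and 42.9, 47.5 and 41.7 CPM with the inducer, a log2 difference of -0.26 (SE 0.13), and the 2 groups were close but did not overlap. EFNB1, a related transmembrane ephrin, was at 10.2 to 13.5 CPM without and 10.7 to 12 CPM with it. EPHB4 was at 38.7, 29.5 and 30.7 CPM without and 42.4, 34.0 and 34.1 CPM with the inducer, higher in each numbered pair by log2 ratios of 0.13, 0.20 and 0.15, although the groups overlapped. EPHB3 differed by -0.32 on the log2 scale (SE 0.29) and EPHB2 by 0.08 (SE 0.24). EPHB2 stood apart in replicate 1 of the NS1 line, at 68.1 CPM untreated and 70.4 CPM treated, against 36.3 to 40.5 CPM in the other 4 NS1 libraries.

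Across the 9 members the median log2 difference for the inducer in NS1 cells was -0.03, beside 0.00555 over all genes tested. The groups did not overlap for 4 members, EPHA4 and EFNA1 higher and EPHA2 and EFNB2 lower, where 27.2% of all genes tested had groups that did not overlap (13.2% higher and 14% lower). By edgeR's quasi-likelihood test, 6.15% of all genes tested were called in this comparison. With the replicate number as a block that share was 13.6%, and with separate blocks in the WT and the NS1 line it was 25.9%. Other transcripts also moved between these libraries. The 7 urothelial markers summed to 97.6 to 114 CPM without and 148 to 213 CPM with the inducer, and among them GATA3, a luminal transcription factor, rose from 30.9 ± 3.31 to 78.2 ± 23.3 CPM (SD, n = 3; log2 difference 1.34, edgeR adjusted p = 0.0281). The 3 endothelial markers summed to 0.0617 to 1.06 CPM without and 1.35 to 4.07 CPM with it. PECAM1 among them rose from 0.206 ± 0.151 to 1.93 ± 0.844 CPM (log2 difference 3.19, edgeR adjusted p = 0.0251). It held only 1, 5 and 2 counts in untreated NS1 replicates 1, 2 and 3, and 22, 21 and 34 in the treated ones. The other endothelial markers changed less, CDH5 from 0.0883 to 0.114 CPM and VWF from 0.418 to 0.633 CPM. The part of these markers in the values of EPHA4 and EFNA1 was not tested.

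**Figure D3:**
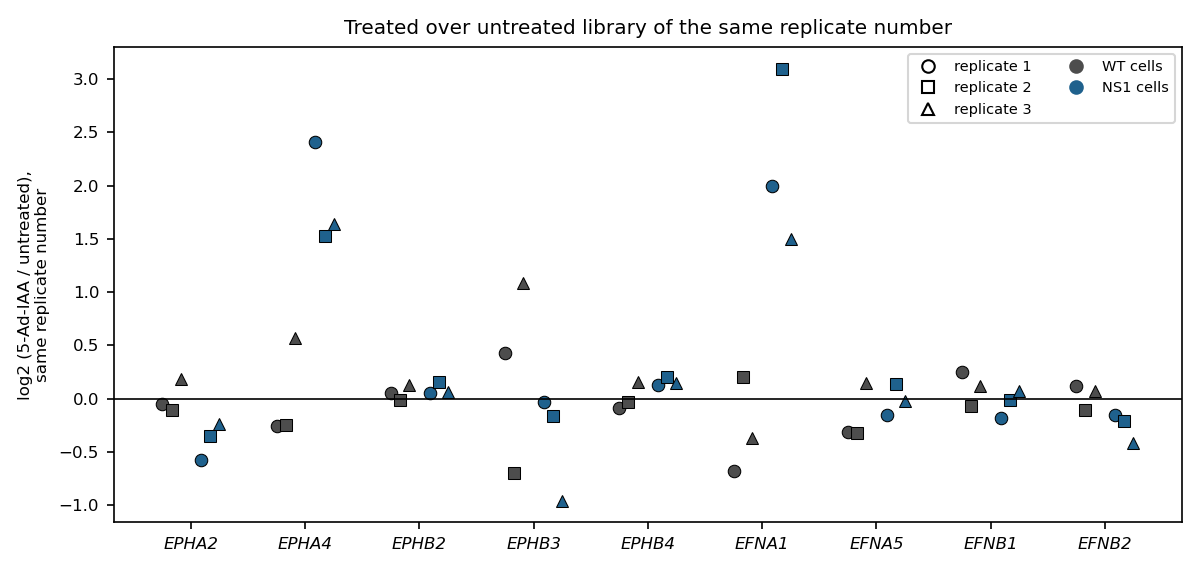
Log2 ratio of treated over untreated for each of the 9 genes, 1 point for each replicate number in WT and in NS1 cells. In NS1 cells all 3 points lie above 0 for EPHA4 (1.53 to 2.41) and EFNA1 (1.5 to 3.1) and below 0 for EPHA2 (-0.58 to -0.24).

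In WT cells, which show what the inducer does without the NS1 genotype, no member was called. The background was the same, since 0% of all genes tested were called by edgeR's quasi-likelihood test, and 94 genes had an unadjusted p under 0.05. DESeq2 also called 0 genes and had 22 at that unadjusted level, and none of the 9 members reached it with edgeR. The log2 differences of the members ran from -0.20 to 0.28 with a median of 0.01, and no member had groups that did not overlap, as 3.41% of all genes did. For EPHA4 the difference was -0.04, with an interval of 2 SE on either side from -0.78 to 0.71. For EPHA2 it was 0.00 (-0.37 to 0.37), for EPHB4 0.01 (-0.23 to 0.26) and for EFNA1 -0.20 (-1.05 to 0.65). Among the 9 members the interval was narrowest for EPHB4 and widest for EFNA1.

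The difference between the inducer's effects in the 2 lines, the interaction, was 2.03 on the log2 scale for EPHA4 (SE 0.52) and 2.36 for EFNA1 (SE 0.63). It was -0.38 for EPHA2 (SE 0.26), -0.60 for EPHB3 and -0.29 for EFNB2. These values rest on the NS1 libraries by which the genes were chosen and are given without a test. By edgeR, 0.0225% of all genes tested were called in the interaction, and 3.57% and 14% with the replicate block and with the block within each line.

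Without inducer, EPHB4 was lower in NS1 than in WT cells, and EFNB2, its ligand, and EPHB3, an EphB receptor of epithelia, were higher. These 3 of the 7 members other than EPHA4 and EPHA2 were called by edgeR's quasi-likelihood test, where 12.5% of all genes tested were called, 5.45% higher and 7.05% lower. The comparison shares its 3 untreated NS1 libraries with the one by which EPHA4 and EPHA2 were chosen, so these are described without a test. The median log2 difference of the 9 members was 0.30, beside 8.83e-05 over all genes, and 4 members had groups that did not overlap, beside 31% of all genes.

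EPHB4 was at 60.6, 58.7 and 56.2 CPM in untreated WT replicates 1, 2 and 3 and at 38.7, 29.5 and 30.7 CPM in untreated NS1 cells. The highest NS1 library was well below the lowest WT library. The level was 1.77-fold lower in NS1 cells (log2 difference -0.83, SE 0.12, edgeR adjusted p = 0.0014). Exons of EPHB4 and SLC12A9, on the opposite strand, share 69 bases. Without a stated use of strand, reads there could count for either gene or for neither. EPHB4 made up 10.2% of the summed RPKM of the Eph receptors in untreated WT cells and 4.98% in untreated NS1 cells.

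EFNB2 was at 38.7, 33.3 and 31.1 CPM in untreated WT cells and at 47.7, 54.8 and 55.7 CPM in untreated NS1 cells, without overlap. The level was 1.53-fold higher in NS1 cells (log2 difference 0.61, SE 0.13, edgeR adjusted p = 0.01). The antisense gene AL138689.2 shares 1313 exon bases with EFNB2, so their reads cannot be fully told apart. Its own counts went the same way, from 17.5 ± 2.11 to 26.5 ± 3.09 CPM (SD, n = 3; log2 difference 0.59, edgeR adjusted p = 0.0187), and its part in the EFNB2 value was not tested. Of the summed RPKM of the 8 ephrin genes, EFNB2 made up 37.5% in untreated WT cells and 46.0% in untreated NS1 cells.

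The ratio of receptor to ligand, EPHB4 over EFNB2 per length, was 1.22, 1.37 and 1.41 in untreated WT replicates 1, 2 and 3 and 0.633, 0.420 and 0.430 in untreated NS1 cells. With the inducer it was 1.06, 1.45 and 1.51 in WT cells and 0.770, 0.558 and 0.639 in NS1 cells. The receptor transcript was thus the more abundant of the pair in all 6 WT libraries and the less abundant in all 6 NS1 libraries.

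EPHB3 was at 1.12, 1.20 and 0.677 CPM in untreated WT cells and at 3.09, 2.54 and 3.08 CPM in untreated NS1 cells. Its lowest NS1 library exceeded its highest WT library, and the level was 2.81-fold higher (log2 difference 1.49, SE 0.32, edgeR adjusted p = 0.0098). These 3 calls were kept when any single library was left out. They were lost in the fits without replicate 2 in all groups (adjusted p of 0.0892 for EPHB4, 0.159 for EFNB2 and 0.0926 for EPHB3) and without replicate 3 (0.0736, 0.205 and 0.151).

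EFNA1 was lower in untreated NS1 cells by 1.46 on the log2 scale (SE 0.48), but edgeR's adjusted p was 0.0669. It was called without untreated NS1 replicate 3 (log2 difference -2.01, adjusted p = 0.0401), without replicate 1 in all groups (0.0321), with DESeq2 (0.0326) and without a filter on low counts (0.00134), and its adjusted p ranged from 0.00134 to 0.351 over all alternatives. Its WT levels of 1.59, 2.33 and 2.32 CPM lay above the 0.494, 0.509 and 1.35 CPM of NS1 cells. EPHA4 differed by -0.30 on the log2 scale (SE 0.38) and EPHA2 by 0.22 (SE 0.19). EPHB2, EFNA5 and EFNB1 differed by 0.30, 0.39 and 0.38, with adjusted p of 0.461, 0.314 and 0.114. For EPHB2 the difference was -0.06 without untreated NS1 replicate 1.

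With the inducer in both lines, EPHB4 was again lower in NS1 cells and EPHA4 was higher. EPHB4 was the 1 of the 7 members other than EPHA4 and EPHA2 that edgeR's quasi-likelihood test called, where 28.2% of all genes tested were called (13.6% higher and 14.5% lower). The 3 treated NS1 libraries are among those by which EPHA4 and EPHA2 were chosen, so both are described here without a test. EPHA4 stood at 4.37, 4.15 and 4.86 CPM in treated WT cells against 25.2, 9.86 and 8.72 CPM in treated NS1 cells, a log2 difference of 1.73 (SE 0.36), or 1.06 without treated NS1 replicate 1. EPHB4 stood at 56.9, 57.3 and 62.9 CPM against 42.4, 34.0 and 34.1 CPM. That is 1.6-fold lower in NS1 cells (log2 difference -0.68, SE 0.12, edgeR adjusted p = 0.00145), and the call was lost without replicate 2 in all groups (adjusted p = 0.0549) and without replicate 3 (0.0672).

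The other B-type members called without inducer were nearer to WT with it. EFNB2 stood at 42.0, 30.9 and 32.6 CPM in treated WT cells and 42.9, 47.5 and 41.7 CPM in treated NS1 cells (log2 difference 0.32, SE 0.13, edgeR adjusted p = 0.0889). The 42.0 CPM of treated WT replicate 1 lay within the NS1 range, and without that library EFNB2 was called (0.47, edgeR adjusted p = 0.0187). EFNB2 was also called without replicate 1 in all groups (0.49, edgeR adjusted p = 0.00469). EPHB3 stood at 1.52, 0.742 and 1.44 CPM against 3.02, 2.27 and 1.58 CPM, without overlap (0.89, SE 0.32, adjusted p = 0.0501). It was called without treated NS1 replicate 3 (adjusted p = 0.0284), without treated WT replicate 1 (0.0481), with RLE size factors (0.0497) and without a filter (0.0416). Whether these differences between the lines changed with the inducer is the interaction, given above without a test.

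EFNA1 was higher in treated NS1 than in treated WT cells by 0.90 on the log2 scale (SE 0.41), with an adjusted p of 0.12. It was called without treated NS1 replicate 1 (1.20, adjusted p = 0.0434), without replicate 1 in all groups (0.0476) and without a filter (0.0259). EFNA5 differed by 0.55 (SE 0.24, adjusted p = 0.0987, and 0.0116 without a filter). EPHB2 and EFNB1 differed by 0.32 and 0.23, with adjusted p of 0.351 and 0.26, and EPHA2, without a test, by -0.16. The median over the 9 members was 0.32, beside -0.00364 over all genes, and 5 members had groups that did not overlap, beside 43.4% of all genes.

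**Figure D4:**
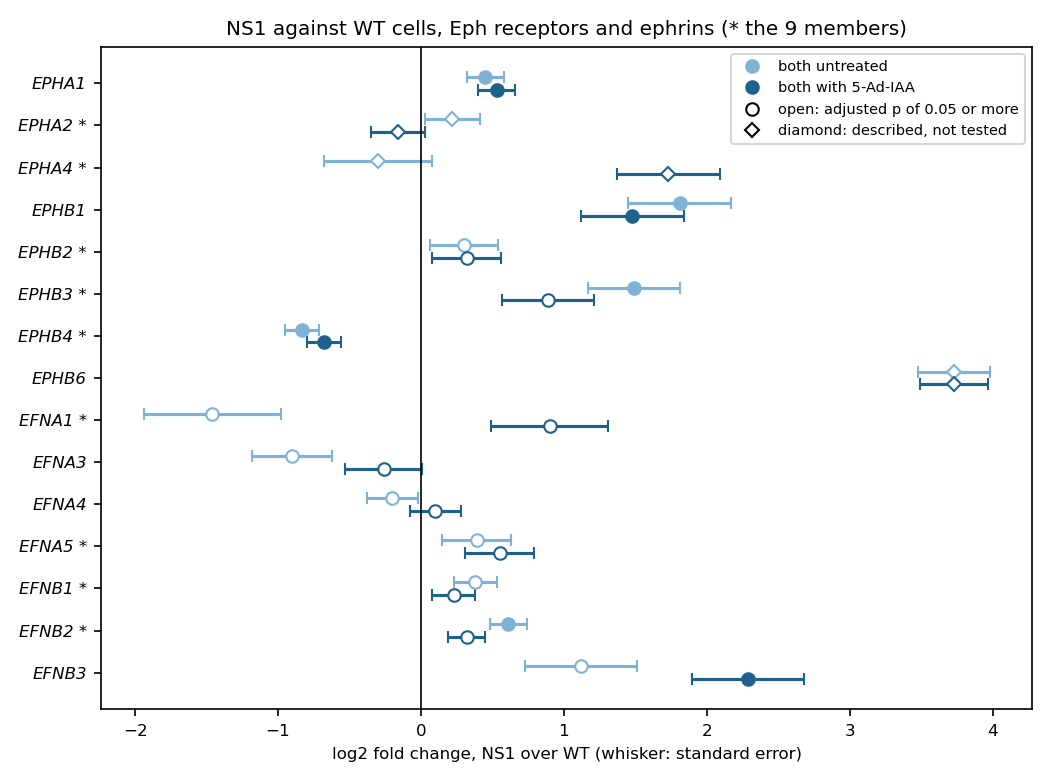
Log2 fold change of NS1 over WT cells for the 15 genes of the family that passed the filter, untreated (light) and with 5-Ad-IAA (dark), with whiskers of 1 SE and filled circles for an adjusted p under 0.05. Diamonds mark EPHA2, EPHA4 and EPHB6, which were described without a test. EPHB4 lies below 0 in both, at -0.83 and -0.68, and EPHB6 lies farthest above 0, at 3.73 in both.

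Among the 13 family genes outside the set, EPHA3, EPHA5, EPHA6, EPHA7, EPHA8, EPHA10 and EFNA2 did not pass the filter. The 6 that passed were the receptors EPHA1, EPHB1 and EPHB6 and the ephrins EFNA3, EFNA4 and EFNB3. With the inducer in NS1 cells, 0 of these 6 were called by edgeR, beside 6.15% of all genes tested. An unadjusted p under 0.05 was reached by 2 of the 6 and by 3689 of all 17775 genes tested. EFNB3, a transmembrane ephrin, went from 4.26, 4.07 and 2.98 CPM to 8.99, 6.02 and 5.48 CPM (log2 difference 0.86, SE 0.36, adjusted p = 0.184). With the replicate block it was called (0.83, adjusted p = 0.0422), as it was with the block within each line (adjusted p = 0.002). EFNA4 was at 4.52 ± 0.957 CPM without and 6.23 ± 0.562 CPM with the inducer (SD, n = 3; log2 difference 0.47, adjusted p = 0.156) and was called with the block within each line (0.0385). In WT cells 0 of the 5 genes other than EPHB6 were called. EPHB6 held only 4 to 7 counts in each WT library and is left out there. In the interaction EFNB3 stood at 1.17 (SE 0.56, adjusted p = 0.421, and 0.02 with the block within each line).

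EPHB6, a receptor whose kinase domain is catalytically inactive, was much higher in NS1 than in WT cells. It was at 0.281, 0.375 and 0.387 CPM in untreated WT cells and 4.75, 4.51 and 4.42 CPM in untreated NS1 cells. With the inducer it was at 0.332, 0.371 and 0.450 CPM in WT and 5.77, 4.19 and 5.23 CPM in NS1 cells. It held 4 to 7 counts in each WT library and 46 to 111 in each NS1 library, and it passed the filter on low counts through the NS1 libraries alone. The log2 difference of 3.73, untreated and treated, is therefore a description without a test.

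Of the other 5 family genes outside the set, edgeR called 2 between the untreated lines, EPHB1 and EPHA1, both higher in NS1 cells, beside the 12.5% of all genes (5.45% higher). EPHB1, an EphB receptor, was at 4.92, 5.10 and 3.38 CPM in WT cells and 24.4, 10.1 and 12.7 CPM in NS1 cells (log2 difference 1.81, SE 0.36, edgeR adjusted p = 0.00674). The call of EPHB1 was lost without replicate 3 in all groups (adjusted p = 0.121). EPHA1 was at 18.7 ± 0.452 and 25.6 ± 2.09 CPM (SD, n = 3; 0.45, SE 0.13, adjusted p = 0.0334), and its call held in 1 of 6 fits that left out a single library. EFNA3, an A-type ephrin, was at 1.27, 1.43 and 1.26 CPM in WT cells and 0.679, 0.509 and 0.962 CPM in NS1 cells, without overlap. It was not called (log2 difference -0.90, SE 0.28, adjusted p = 0.0542), but it was called with library totals (0.0478). EFNB3 differed by 1.12 (SE 0.39, adjusted p = 0.082) and was called with DESeq2 (0.0413) and without replicate 1 in all groups (0.00312).

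Between the treated lines 3 of these 5 genes were called, EFNB3, EPHB1 and EPHA1, all higher in NS1 cells, beside the 28.2% of all genes (13.6% higher). EPHB1 differed by 1.48 (SE 0.36, edgeR adjusted p = 0.00854) and EPHA1 by 0.53 (SE 0.13, adjusted p = 0.00711). Both calls were lost without replicate 2 in all groups (0.0574 and 0.164) and without replicate 3 (0.0517 and 0.11). EFNB3 stood at 1.90, 0.742 and 1.44 CPM in treated WT cells and 8.99, 6.02 and 5.48 CPM in treated NS1 cells. Its level was 4.90-fold higher (log2 difference 2.29, SE 0.39, adjusted p = 0.000956). EFNA3 stood at 0.997, 1.26 and 1.17 CPM against 0.884, 0.960 and 0.996 CPM, close to each other but without overlap, and was not called (-0.26, SE 0.27, adjusted p = 0.553).

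Of 28 genes whose products act with Eph receptors or ephrins, 24 were tested. With the inducer in NS1 cells 1 of the 24 was called, INPPL1, beside the 6.15% of all genes. INPPL1 encodes SHIP2, a phosphoinositide phosphatase that binds EPHA2, and its level was 143, 194 and 183 CPM without and 214, 341 and 337 CPM with the inducer (log2 difference 0.78, SE 0.18, edgeR adjusted p = 0.0271). The groups did not overlap, but among the fits that left out a single library the call held only without treated NS1 replicate 1, and the adjusted p reached 0.107 in the others. With the replicate block it was 0.000631. FYN, a Src-family kinase, was not called (adjusted p = 0.25) but was with that block, at a log2 difference of 0.53 (adjusted p = 0.00527). In WT cells 0 of the 23 genes other than GRIP1, which held 1 to 6 counts in each WT library, were called. In the interaction 0 of these 23 were called as well, INPPL1 standing at 0.77 (SE 0.26, adjusted p = 0.222). INPPL1 was called there with the replicate block (adjusted p = 0.0131). FYN stood at 0.40 in the interaction (adjusted p = 0.739) and was called with the block within each line (0.42, adjusted p = 0.0331).

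GRIP1, a PDZ scaffold that binds B-type ephrins, was at 0.214 ± 0.205 CPM in untreated WT and 1.19 ± 0.528 CPM in untreated NS1 cells (SD, n = 3), on 1 to 6 counts in each WT library and 7 to 49 in each NS1 library. It also passed the filter through the NS1 libraries alone and is described without a test. Of the other 23 genes, edgeR called 4 between the untreated lines, 2 higher and 2 lower in NS1 cells, beside the 12.5% of all genes. RASA1, the RAS GTPase activator known to bind EPHB2, differed by 0.62 (adjusted p = 0.0348), and ACP1, a low molecular weight phosphatase that acts on EPHA2, by 0.41 (adjusted p = 0.0182). CHN1, the Rac GTPase activator that acts downstream of EPHA4, was lower by 0.55 on the log2 scale, at 11.2 ± 0.474 CPM in WT and 7.57 ± 0.752 CPM in NS1 cells (edgeR adjusted p = 0.0181). Leaving out single libraries kept the call of RASA1 in 2 of 6 fits, of ACP1 in 4 and of CHN1 in 4.

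Between the treated lines 5 of these 23 genes were called, 4 higher and 1 lower in NS1 cells, beside the 28.2% of all genes. With library totals in place of TMM scaling 3 were called, 1 higher and 2 lower. INPPL1 differed by 1.03 (SE 0.19, edgeR adjusted p = 0.00128) and CHN1 by -0.63 (SE 0.14, adjusted p = 0.0038), and both were called in each of the 6 fits without a single library. NCK2, an SH2 adaptor, differed by 0.49 (SE 0.14, adjusted p = 0.0185) and was called in 4 of those 6 fits.

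The genes with the pattern most like that of EPHA4 over the 12 libraries were CBLB, LXN, SMARCD3, GPRC5C and DHRS3. Likeness was the root mean square difference of log2 CPM after each gene was centred on its own mean, over 12678 genes with a mean of at least 5 CPM. It was 0.352 for CBLB and 0.428 for DHRS3, where the median over those genes was 0.851. The likeness takes in the treated and untreated NS1 libraries. A like direction with the inducer thus follows from the choice of genes, for EPHA4 and EPHA2 alike, and is only described. The 5 genes were higher with the inducer in NS1 cells by 1.45, 1.34, 1.19, 1.33 and 1.39 on the log2 scale, smaller differences than the 2.00 of EPHA4. Nearest to EPHA2 were FSTL1, TNFRSF10B, PRNP, ANKRD11 and CDYL2, from 0.0933 to 0.104 against a median of 0.345, and they were lower with the inducer by log2 differences from -0.44 to -0.20.

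Replicate 1 moved with several members in every group. EPHA2 and EFNA1 were lowest in replicate 1 in 4 of 4 groups, and EFNA5 was highest there in 4 of 4. EPHA4, EPHB3 and EPHB4 were each highest in replicate 1 in 3 of 4 groups. Without replicate 1 in all groups, the inducer difference in NS1 cells was 1.57 on the log2 scale for EPHA4, 2.21 for EFNA1 and -0.30 for EPHA2. Replicate 1 by itself, with a single library in each group, could not be tested. In the same fit EPHB4 differed between untreated lines by -0.93 (edgeR adjusted p = 0.000113) and EFNB2 by 0.78 (adjusted p = 0.00056).

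By RefSeq on GRCh38.p14, EPHA2 (ENSG00000142627.13) lies at chr1:16124337-16156069, EPHB2 (ENSG00000133216.16) at chr1:22710838-22921500 and EFNA1 (ENSG00000169242.12) at chr1:155127876-155134899. EPHA4 (ENSG00000116106.12) lies at chr2:221418027-221574202 and EPHB3 (ENSG00000182580.3) at chr3:184561785-184582408. EPHB4 (ENSG00000196411.10) is at chr7:100802565-100827523 and EFNA5 (ENSG00000184349.13) at chr5:107376894-107670937. EFNB1 (ENSG00000090776.6) is at chrX:68829021-68842160 and EFNB2 (ENSG00000125266.8) at chr13:106489745-106535662. The counts cover the exons of each gene. EPHA4 and AC079834.2 share 353 exon bases on opposite strands, but that gene held 22 counts over the 12 libraries against 1270 for EPHA4.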

How the data were processed

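Poly(A) RNA of 12 T24 libraries was sequenced for 75 cycles on a NextSeq instrument, per the labels' protocols. The deposited values are raw counts of reads for each gene. The submitters' processing notes list STAR 2.7.3a, featureCounts 1.6.4 and hg38, and neither annotation nor strand setting is given in the sources used here. Columns were matched to libraries by name.

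The counts were fitted with edgeR 4.0.16 (R 4.3.3): filterByExpr over the 4 groups, TMM scaling, and 1 quasi-likelihood model of the 12 libraries with a mean per group (glmQLFit, glmQLFTest, two-sided). P-values were adjusted by Benjamini and Hochberg over the 17775 genes, and a value under 0.05 is a call. Standard errors are the log2 fold change over the square root of F. CPM uses the TMM-scaled totals, and RPKM divides it by the union of exons in GENCODE 29. The fit was tested on simulated counts with the same spread for all genes, no replicate effect, and changes set only in genes with many counts. That test does not cover the shift of replicate 1 or genes with few counts. Intervals of 2 SE include the spread between libraries. EPHA4 and EPHA2, on which the set was chosen, and EPHB6 and GRIP1, which passed the filter in NS1 libraries alone, were not tested between the lines. EPHB6 and GRIP1 were also left out of the counts for WT cells and the interaction.

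Same-numbered libraries deviated together in the inducer comparisons (for NS1, correlations of 0.71, 0.39 and 0.38, and for WT, 0.75, 0.38 and 0.26). Replicates 2 and 3 were about as alike across numbers, at 0.37 and 0.28 in NS1 and 0.37 and 0.25 in WT cells. These values set replicate 1 apart but do not show a pairing by number for replicates 2 and 3. Blocked values are given for the named Eph, ephrin and signalling genes where they change a call. No library repeated another: even the closest replicates had a chi-square per degree of freedom of 3.03.

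The members and lists were chosen with earlier results of these data known. Named were all members, other family genes that passed the filter, up to 4 called and non-overlapping signalling genes per comparison by size of change, and the 5 genes most like EPHA4 and EPHA2. FYN, the markers GATA3, PPARG, UPK2, UPK1A and PECAM1 and the overlapping genes were named after their values were seen. Alternatives were RLE factors, library totals, other filters, DESeq2 1.42.0, the replicate block and left-out libraries. A further marker list is not reported here.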

Additional observations from a re-analysis of the deposited data

How the results depend on the processing

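With the inducer in NS1 cells 1093 genes were called, 1801 without a filter on low counts, 2421 with the replicate block, 4596 with that block within each line, and 0 to 2021 when libraries were left out. The interaction had 4 calls, 33 with at least 10 counts in every library, 377 with DESeq2, 683 without a filter, 7 with RLE factors, 634 with the replicate block, 2495 with the block within each line, and 0 to 573 when libraries were left out. Untreated lines differed in 2222 genes, 3908 with the block and 182 to 3466 with libraries left out, and treated lines in 5007, with 1632 to 6007. No fit called a gene for the inducer in WT cells. With library totals the split of higher and lower calls was 370 and 759 in place of 490 and 603 with the inducer in NS1 cells, and 1863 and 3182 in place of 2426 and 2581 between treated lines.

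Of the 9 members, 3 were called between untreated lines (0 to 4 with libraries left out). Between treated lines 2 were called, 5 without a filter, 5 with the replicate block and 1 to 4 with libraries left out. Each of these counts for the treated lines includes EPHA4. That gene was chosen by the same treated NS1 libraries, so its part in the counts is not a test. Of the 7 members other than EPHA4 and EPHA2, 1 was called, as given above. Of all genes tested, 28.2% were called between treated lines, 16.1% without a filter and 37.5% with the replicate block. The block added EFNA1 between untreated lines (adjusted p = 0.0092), and EPHB3 (0.0295), EFNA1 (0.0238) and EFNA5 (0.0059) between treated lines, and outside the set EFNA3 (0.0391), EFNB3 (0.0106) and FYN (0.0397) between untreated lines. Between the lines same-numbered libraries correlated weakly (0.14, 0.07 and 0.19 untreated, and 0.15, 0.12 and 0.01 treated). Libraries of different numbers ran from -0.15 to -0.02 untreated and from -0.16 to 0.11 treated. Whether the numbers pair the libraries between the lines was not tested. The block within each line could not be fitted there, and a floor of 10 counts in every library dropped EFNA1 and EPHB3.

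Signs turned only for members that were not called. In WT cells with the inducer, left-out libraries gave log2 differences from -0.61 to 0.14 for EFNA1, 0 to 0.21 for EFNB1, -0.12 to 0.13 for EFNB2, -0.12 to 0.15 for EPHA2 (-0.01 with library totals), -0.26 to 0.1 for EPHA4, -0.01 to 0.11 for EPHB2 and -0.06 to 0.07 for EPHB4. EPHB2 ranged from -0.1 to 0.48 between untreated lines and from -0.05 to 0.54 between treated lines, and EPHA2 from -0.3 to 0 between treated lines. With the inducer in NS1 cells, where members were not tested, leaving out single libraries gave -0.24 to 0.44 for EPHB2, -0.23 to 0.26 for EFNA5 and -0.13 to 0.08 for EFNB1. Depth limits EFNA1, EPHB3 and EPHA4 most. In all of these the cause was not tested.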
